A study of Mus musculus with 12 samples.

Results

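Hepatokines are proteins that hepatocytes release into the blood and that act on other organs. The 9 hepatokine genes described here were chosen by symbol. They are Enho, Angptl4, Angptl6, Angptl8, Gdf15, Inhbe, Lect2, Fetub and Ahsg, and all 9 were found among the 14822 genes of the deposited expression table. All 9 also passed the filter on low values that left 10988 genes for testing. The values are TPM, a transcript abundance corrected for transcript length and scaled to a fixed total in each library. The RNA was polyadenylated RNA of whole liver from C57BL6/J mice, in 12 libraries. The first group, called chow, was 4 libraries of mice on chow diet with saline vehicle. The second, called MASH vehicle, was 4 libraries of mice on a diet that induces metabolic dysfunction-associated steatohepatitis (MASH), also with vehicle. The third, called FGF21, was 4 libraries of mice on the MASH diet given fibroblast growth factor 21 at 1 mg per kg per day, and treatment lasted 4 weeks. The labels give no age, sex or diet composition, and they do not say that each library is its own animal. The p-values therefore measure the spread between these libraries, which may be technical.

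Enho encodes adropin, a small secreted peptide linked to glucose and lipid use. The angiopoietin-like proteins ANGPTL4 and ANGPTL8 inhibit lipoprotein lipase, the enzyme at the vessel wall that frees fatty acids from circulating triglyceride. ANGPTL4 is induced by fatty acids and fasting through PPAR receptors, and ANGPTL8 by feeding and insulin. GDF15 and activin E, the product of Inhbe, are hormones of the TGF-beta superfamily. GDF15 lowers appetite through a receptor in the hindbrain, and activin E acts on adipose tissue, where it restrains lipolysis. LECT2 is a secreted protein of hepatocytes associated with insulin resistance. AHSG (fetuin-A) and FETUB (fetuin-B) are plasma proteins of the cystatin superfamily: fetuin-A carries calcium mineral in blood and can inhibit the insulin receptor, and fetuin-B inhibits ovastacin, a protease of the egg.

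The promoters of Inhbe, Gdf15 and Angptl8 are shown because Inhbe and Gdf15 were both called higher on the MASH diet and Angptl8 stood far out in 1 chow library. The sequences are from RefSeq, build GRCm38.p6. Each runs from 250 bases before to 50 bases after the annotated start, in the direction of the gene, and 7 of the 9 members had such a sequence. Inhbe is chr10:127351799-127352098 on the minus strand, and this RefSeq start lies inside the span of the gene in the GENCODE annotation. Gdf15 is chr8:70632407-70632706 on the minus strand, the upstream of its 2 starts in the table. Angptl8 is chr9:21835260-21835559 on the plus strand. Capitals mark a match to one of 4 motifs, searched on both strands.
Inhbe: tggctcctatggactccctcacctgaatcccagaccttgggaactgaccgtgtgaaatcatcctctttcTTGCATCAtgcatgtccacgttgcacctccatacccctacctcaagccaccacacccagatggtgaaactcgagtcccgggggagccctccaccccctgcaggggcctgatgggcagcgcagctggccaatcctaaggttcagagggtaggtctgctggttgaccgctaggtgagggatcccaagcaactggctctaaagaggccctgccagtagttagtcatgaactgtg
Gdf15: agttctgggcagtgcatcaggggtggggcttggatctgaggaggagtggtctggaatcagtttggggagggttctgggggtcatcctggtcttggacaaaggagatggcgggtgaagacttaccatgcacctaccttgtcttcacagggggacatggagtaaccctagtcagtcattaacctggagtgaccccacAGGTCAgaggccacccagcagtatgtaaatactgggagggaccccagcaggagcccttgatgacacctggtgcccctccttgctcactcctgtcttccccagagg
Angptl8: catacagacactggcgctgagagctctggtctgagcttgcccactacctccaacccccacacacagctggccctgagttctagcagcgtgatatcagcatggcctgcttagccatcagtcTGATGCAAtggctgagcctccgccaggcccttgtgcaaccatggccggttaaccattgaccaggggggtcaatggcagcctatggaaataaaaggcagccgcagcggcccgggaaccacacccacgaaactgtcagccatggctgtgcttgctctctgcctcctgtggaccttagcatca

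The motif TGATGNAA, the composite element read by ATF4 with a C/EBP partner, matched once in Inhbe, on the opposite strand as TTGCATCA at positions -181 to -174 from the start. It also matched once in Angptl8, as TGATGCAA at -130 to -123, and 3.97% of 32851 promoters of the same length held this motif. The nuclear receptor half-site AGGTCA matched in the printed Gdf15 window at -55 to -50, against 16.3% of all promoters. The E-box CACGTG matched at the other Gdf15 start at -83 to -78, against 7.15% of all promoters. The CREB motif TGACGT, held by 7.51% of promoters, matched in none of the members' windows. The windows of Angptl6, Lect2, Ahsg and Fetub held none of these letters. A match describes the sequence only.

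A few features of the libraries touch the members. The deposited columns summed to between 991794 and 999890 TPM. FGF21 replicates 1 and 3 fell short of 1000000 by 7968.1 and 8205.8, against at most 1216.9 in the other libraries. In the same libraries Cela1, an elastase of pancreatic acinar cells, stood at 428.5 and 578.3 TPM, against 28.2 to 74.6 elsewhere. Adipoq, which marks fat cells, stood at 2.0 and 1.9 TPM in these libraries and at 0.2 or below in the others. Other listed fat cell markers differed in this. Cfd stood at 5.3 and 33.3 TPM there, against 41.0 and 1.2 in FGF21 replicates 2 and 4. Cidec stood at 41.9 and 155.5, against 171.9 and 55.0. The log2 fold change of Fabp4 for FGF21 against chow was 1.02, and 0.57 without FGF21 replicates 1 and 3. Chow replicate 1 stood apart from the other 3 chow libraries in several members, as given below. The 12 hepatocyte markers were present in every group and summed to 93988.1 to 115384.1 TPM in chow, 97271.1 to 104661.5 in MASH vehicle and 109204.7 to 125064.7 in FGF21. Taken singly, 0 of these markers were called higher and 5 lower on the diet (Serpina1a, Tat, Cps1 and Fgb among them, median -0.48 against 0.19 over all genes), and 0 and 7 with median-of-ratios scaling. In FGF21 against MASH vehicle 1 was higher and 0 lower (median 0.25 against -0.03), and against chow 3 were higher and 6 lower (median -0.16 against 0.20). Of all tested genes 29.5% were called higher and 7.84% lower on the diet. The shares were 6.02% and 4.28% for FGF21 against MASH vehicle, and 37.8% and 14.2% against chow. A difference of the markers from these shares was not tested, nor was the part of hepatocyte markers in the members' values. The median log2 fold change over all tested genes was 0.19 for the diet, -0.03 for the treatment on that diet and 0.20 for treated against chow livers. With median-of-ratios scaling it was -0.01, -0.02 and 0.02. That scaling brings the medians of the libraries together by construction, so these values were set in advance. The source of the shift in the 2 comparisons with chow was not tested. The 3 comparisons share libraries, and their values are set side by side only.

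The members spanned a wide range of levels. Ahsg was among the most abundant transcripts of the liver, at rank 14 of 14822 genes by mean TPM in chow, 11 in MASH vehicle and 7 in FGF21. Together the 9 members took 1.12% of the total in chow, 1.03% in MASH vehicle and 1.31% in FGF21, and Ahsg alone made up 92.8 to 93.5% of that. Fetub ranked next among the members, followed by Angptl4, Lect2 and Angptl8 in every group. In MASH vehicle every one of these steps from Ahsg to Lect2 was free of overlap between libraries. In chow the libraries of Angptl4 and Lect2 overlapped, as did those of Lect2 and Angptl8, and in FGF21 those of Fetub and Angptl4 and of Lect2 and Angptl8 did. Below Angptl8 the order changed with the group. In chow it was Angptl6, Inhbe, Enho and Gdf15, each overlapping its neighbour. In MASH vehicle it was Inhbe, Gdf15, Angptl6 and Enho, with Enho apart from all others at the bottom. In FGF21 it was Angptl6, Inhbe, Gdf15 and Enho, with Enho again apart. Between the lowest and the highest of the 12 libraries Enho varied 42.6-fold, Gdf15 9.06-fold, Inhbe 4.95-fold and Angptl8 4.82-fold, while Angptl6 varied 1.54-fold.

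**Figure D1:**
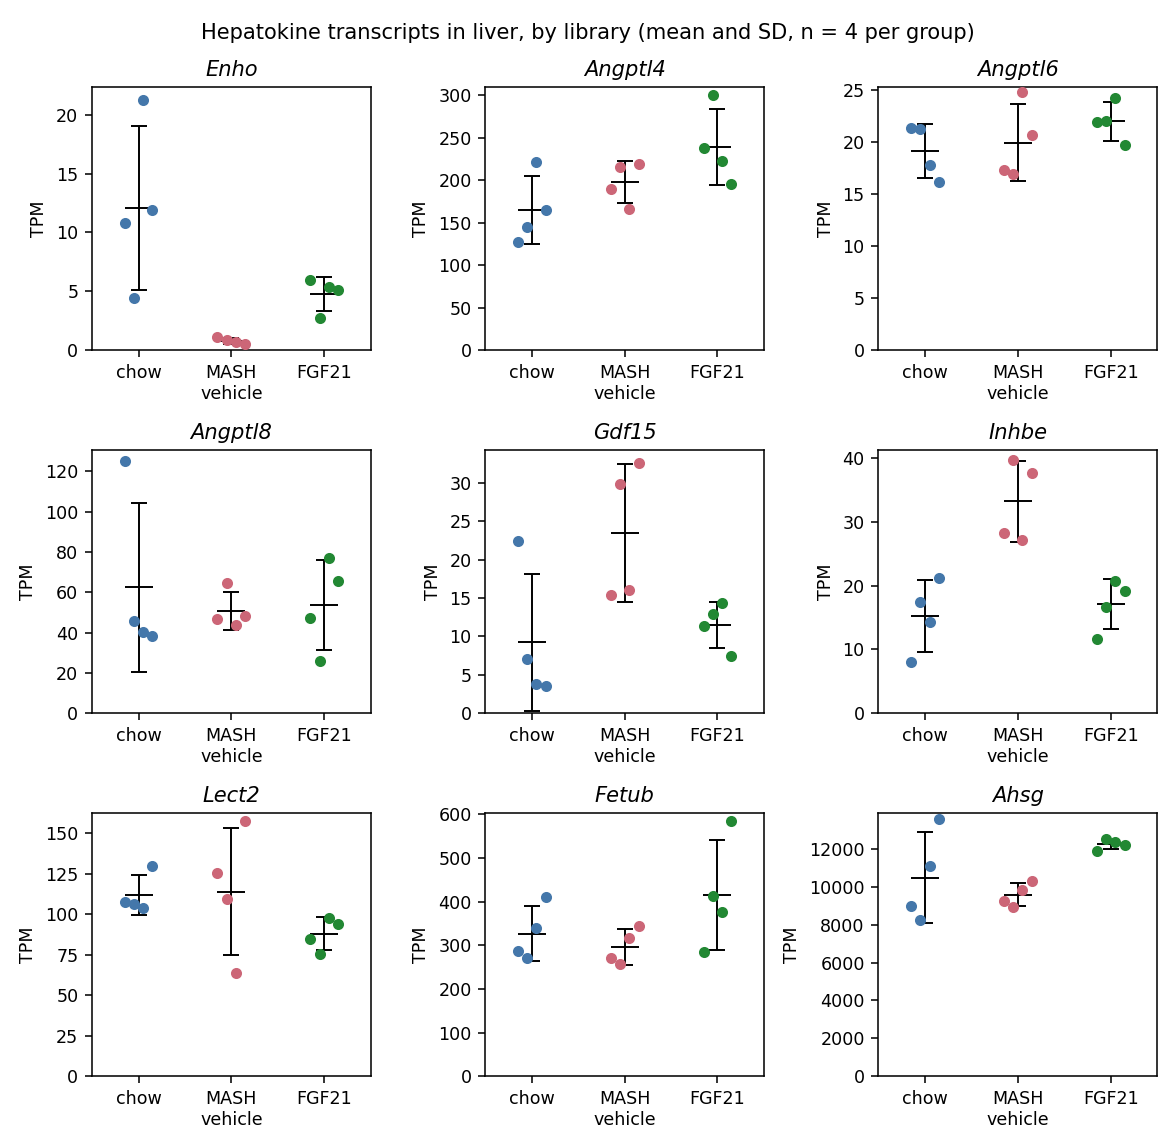
TPM of the 9 members in each of the 12 libraries, with 1 panel per gene, points for libraries and bars for the mean and SD (n = 4). The MASH vehicle points of Enho lie below all others at 0.5 to 1.1 TPM, those of Inhbe lie above all others at 27.2 to 39.6, and single chow libraries stand high for Angptl8 (125.2) and Gdf15 (22.4).

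Levels were compared with limma, a linear model fitted to all tested genes, on log2(TPM + 1) with 2-sided p-values adjusted over all genes by the Benjamini-Hochberg method and a threshold of 0.05. This scale understates changes of genes with low values. For MASH vehicle against chow, 3 of the 9 members were called: Gdf15 and Inhbe rose and Enho fell. Of all tested genes 37.3% were called in this comparison, 29.5% higher and 7.84% lower, so the members' share is near the background. Enho lay below chow and Inhbe above it with no overlap of libraries, against 9.52% and 33.1% of all genes, or 42.6% in either direction. For FGF21 against MASH vehicle, 2 members were called: Enho rose and Inhbe fell, against 10.3% of all genes, 6.02% higher and 4.28% lower. Here 4 members had no overlap, Enho and Ahsg on the higher side against 7.47% of all genes and Gdf15 and Inhbe on the lower side against 6.63%, or 14.1% in either direction. For FGF21 against chow, 2 members were called, Angptl4 higher and Enho lower, against 52.0% of all genes, 37.8% higher and 14.2% lower. In that comparison 1 member, Lect2, had no overlap, on the lower side, against 5.99% of all genes, 30.5% on the higher side and 36.5% in either direction. At an unadjusted p under 0.05 in the limma fit the numbers were 3, 4 and 2. The share of all tested genes under that threshold was not counted, so nothing is read from these numbers. The median log2 fold change of the members was -0.04, 0.15 and 0.20. Median-of-ratios scaling changed the split only for FGF21 against chow, to 0 higher and 2 lower, with Angptl4 lost and Lect2 called. Removal of the trend with GC content changed the diet split to 1 higher and 2 lower, with Gdf15 lost and Ahsg called. Quantile normalization gave 2 higher and 1 lower for FGF21 against MASH vehicle, with Ahsg added, and 1 and 2 against chow, with Ahsg higher and Enho and Lect2 lower. Because whole liver was measured, fewer cells of a type and less RNA per cell cannot be told apart.

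**Figure D2:**
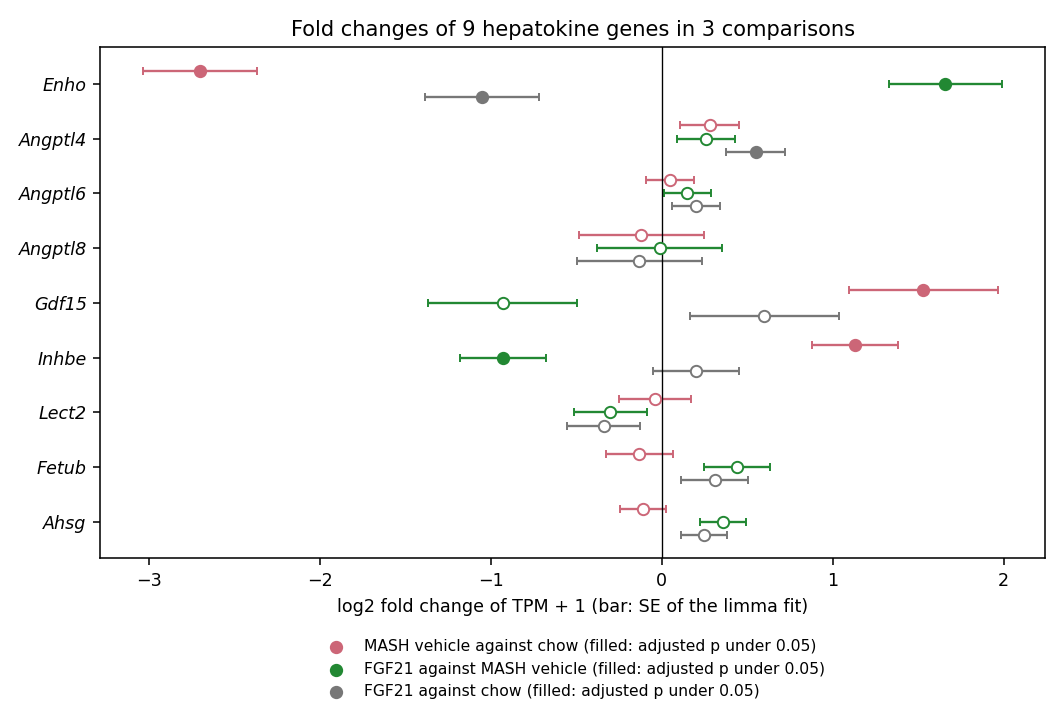
Log2 fold change of TPM + 1 for the 9 members in the 3 comparisons, with bars for the SE of the limma fit and filled points for an adjusted p under 0.05. Enho (-2.70 and 1.66) and Inhbe (1.13 and -0.93) have filled points of opposite sign for the diet and for FGF21 on that diet, and the 2 comparisons share the MASH vehicle libraries.

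Enho, the adropin gene, fell to 1.1 TPM or less on the MASH diet and was higher in treated livers, though below chow on average. It lies at chr4:41638144-41640324 on the minus strand of GRCm38. Its levels were 10.8, 4.4, 21.3 and 11.9 TPM in chow, 1.1, 0.9, 0.7 and 0.5 in MASH vehicle, and 6.0, 2.7, 5.4 and 5.1 in FGF21. Every MASH vehicle library was below every library of the other groups, while chow replicate 2 fell inside the FGF21 range. The mean fell from 12.1 ± 6.97 TPM (SD, n = 4 here and below) to 0.80 ± 0.258 on the MASH diet, 15.1-fold lower, with a log2 fold change of -2.70 ± 0.332 (SE) and a limma adjusted p of 6.21e-05. This call held under all 25 alternatives, with log2 fold changes from -3.60 to -1.47. With FGF21 the mean was 4.80 ± 1.45, 6.0-fold above MASH vehicle, with a log2 fold change of 1.66 and a limma adjusted p of 0.0091. With a pseudocount of 5, which presses low values together, the log2 fold change of this rise was 0.74 and its adjusted p 0.0508. Over the alternatives the log2 fold change spanned 0.74 to 2.43 and the adjusted p 0.00219 to 0.0508. Against chow the FGF21 level was lower by a log2 fold change of -1.05, with a limma adjusted p of 0.0189, and this call was lost without chow replicate 3 (0.0535) or without FGF21 replicate 2 (0.0647). The 3 genes most like Enho over the 12 libraries were Cyp7b1 (Pearson's r of log2 values 0.928), an oxysterol hydroxylase, Lifr (0.924), the receptor of leukaemia inhibitory factor, and Kyat1 (0.916), a kynurenine aminotransferase. With the group means removed r was 0.702, 0.629 and 0.671. They share its libraries and its group pattern, so these values are a description. Cyp7b1 averaged 76.9, 32.0 and 44.9 TPM in chow, MASH vehicle and FGF21. An exon of Enho shares 15 bases with Dnaic1 on the other strand, and the labels do not say whether counting used strand.

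Angptl4, the lipase inhibitor that responds to fatty acids, stood above 100 TPM in every library. It lies at chr17:33773750-33781830 on the minus strand. Its levels were 127.8, 145.4, 221.1 and 165.1 TPM in chow, 189.9, 216.0, 166.2 and 219.5 in MASH vehicle, and 237.8, 300.6, 222.7 and 195.9 in FGF21. The 3 groups overlapped in every comparison. The log2 fold change was 0.28 for the diet (limma adjusted p = 0.199) and 0.26 for FGF21 against MASH vehicle (0.36). FGF21 against chow was called higher, at 0.55 with a limma adjusted p of 0.0175. That call was lost after quantile normalization (adjusted p = 0.0757) or median-of-ratios scaling (0.33, 0.0967), with Mup and mitochondrial genes taken out of the total (0.0536) and with the GC trend removed (0.11, 0.62). It was also lost without chow replicate 1 (0.0594) or FGF21 replicate 2 (0.0616). Closest in pattern to Angptl4 were Pick1 (r = 0.938), a scaffold protein, Vasn (0.909) and Chpf (0.905), a chondroitin synthase component.

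Angptl8, the insulin-responsive member, did not pass in any comparison, and its levels varied within the chow and FGF21 groups. It lies at chr9:21835510-21837347 on the plus strand, inside the span of Dock6 on the other strand with 0 exonic bases shared. Its levels were 125.2, 45.9, 40.1 and 38.5 TPM in chow, 46.6, 64.8, 43.6 and 48.1 in MASH vehicle, and 47.0, 26.0, 76.9 and 65.5 in FGF21. Chow replicate 1 stood above all other libraries, and the groups overlapped. The log2 fold changes were -0.12 ± 0.366 for the diet (limma adjusted p = 0.81), -0.01 for FGF21 against MASH vehicle (0.993) and -0.13 for treated against chow livers (0.785). Without chow replicate 1 the diet value was 0.27 (0.487) and the value for FGF21 against chow 0.26 (0.469), so the sign of both rests on that library. Closest in pattern to Angptl8 were Nr4a1 (r = 0.845), an immediate early nuclear receptor, Fasn (0.837), the fatty acid synthase, and Sgsm1 (0.756). With group means removed r was 0.864, 0.847 and 0.859. Chow replicate 1 was also high for lipogenic genes, which were chosen after their values were seen: Fasn stood at 708.4 TPM against 266.6 to 329.3 in the other 3 chow libraries, Acly at 385.5 against 173.8 to 186.1 and Thrsp at 988.4 against 443.5 to 546.0. It also differed in clock genes, likewise chosen after their values were seen, with Arntl at 4.1 TPM against 0.5 to 1.8 and Dbp at 67.2 against 112.9 to 234.4. The part of these in the Angptl8 value was not tested.

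**Figure D3:**
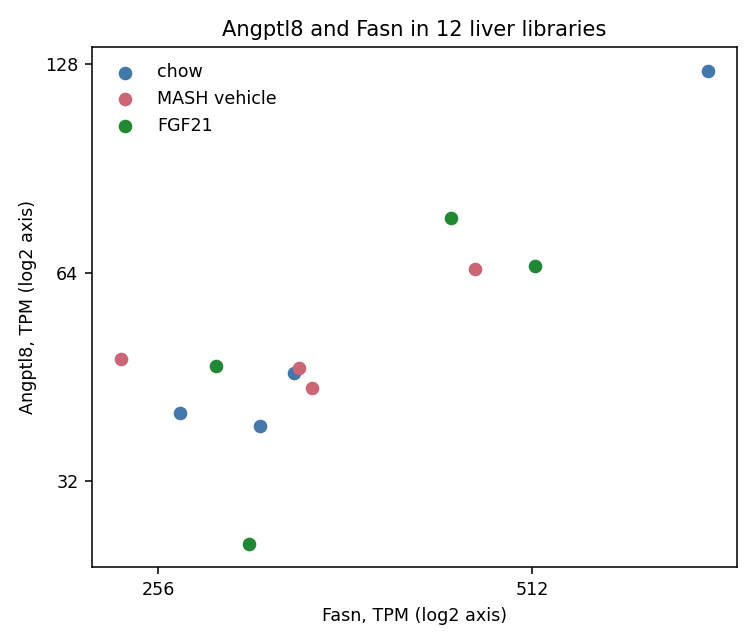
Angptl8 against Fasn in the 12 libraries, both in TPM on log2 axes, with 1 point per library coloured by group. Chow replicate 1 lies at the upper right (Fasn 708.4, Angptl8 125.2), and in the other libraries Angptl8 lies between 26.0 and 76.9 TPM.

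Angptl6, a circulating factor linked to energy expenditure in mice, was the steadiest member. It lies at chr9:20873808-20879727 on the minus strand. Its levels were 16.1 to 21.3 TPM in chow, 16.9 to 24.8 in MASH vehicle and 19.7 to 24.2 in FGF21. The groups overlapped in all comparisons. The log2 fold changes were 0.05 ± 0.139 for the diet (limma adjusted p = 0.788), 0.15 for FGF21 against MASH vehicle (0.545) and 0.20 for treated against chow livers (0.245). Its exons share 265 bases with A230050P20Rik on the other strand, so reads there may belong to either gene if strand was not used. The genes most like it were Ppp1r14a (r = 0.797), Cryab (0.79) and Col15a1 (0.748), the lowest values of any member.

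Around these inhibitors, genes of the lipase system were called in both directions. For this and the later lists, the shares of all tested genes called are the background. These were 29.5% higher and 7.84% lower for the diet, and 6.02% and 4.28% for FGF21 against MASH vehicle. For FGF21 against chow they were 37.8% and 14.2%. A difference of a list from these shares was not tested. Of 16 tested genes of that list, 5 were called higher and 2 lower in MASH vehicle against chow, with a median of 0.19 against 0.19 over all genes. With median-of-ratios scaling the split was 4 and 4. Lpl, the lipase itself, went on the diet from 1.27 ± 0.171 up to 20.5 ± 2.37 TPM (3.24 on the log2 scale, limma adjusted p = 8.3e-07) and fell to 10.5 ± 3.84 with FGF21 (-0.96, 0.00858). Apoc2, the cofactor that activates the lipase, rose from 802.1 ± 207.7 to 1924.2 ± 165.1 TPM (1.29, limma adjusted p = 0.000197) and fell to 1086.6 ± 240.8 (-0.85, 0.0132). Lpl is also 1 of the 12 listed markers of recruited macrophages. Of the 11 tested, Lpl included, 9 were higher and 0 lower on the diet, and 0 higher and 8 lower in FGF21 against MASH vehicle. The 12 markers, Lpl included, summed to 95.6 to 135.8 TPM in chow, 289.1 to 423.6 in MASH vehicle and 207.0 to 228.0 in FGF21. The part of those cells in the Lpl values was not tested. With FGF21, 4 of the 16 were higher than in MASH vehicle and 2 lower (median -0.03 against -0.03). Those higher included Apoa5, an apolipoprotein that aids lipolysis, at 1586.7 ± 69.3 and 2737.1 ± 780.4 TPM (0.75, limma adjusted p = 0.0123). Lrp1, a receptor that takes up remnant particles, was also higher, at 215.7 ± 16.4 and 536.8 ± 316.2 TPM (1.15, limma adjusted p = 0.0222). Between FGF21 and chow 7 were higher in FGF21 and 2 lower (median 0.40 against 0.20), and 3 and 3 with median-of-ratios scaling.

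Targets of PPAR-alpha, the fatty acid receptor of hepatocytes, rose together on the diet. Of 22 tested targets, 21 were called higher and 0 lower (median 1.23 against 0.19), and 15 and 0 with median-of-ratios scaling. Ehhadh, a peroxisomal oxidation enzyme, averaged 89.1 ± 9.54 in chow and 332.1 ± 66.3 TPM in MASH vehicle (1.87 on the log2 scale, limma adjusted p = 1.22e-05). In FGF21 against MASH vehicle 0 were higher and 3 lower (median -0.20 against -0.03), and 1 and 3 with median-of-ratios scaling. Among the lower were Acaa1b (-0.70, limma adjusted p = 0.0168) and Pex11a (-0.57, 0.03), both peroxisomal. Acaa1b was lost with quantile normalization (0.205) and Pex11a without FGF21 replicates 1 and 3 (0.0962). Against chow, 18 of the 22 were higher in FGF21 and 0 lower (median 0.81 against 0.20). Angptl4 had log2 fold changes of 0.28, 0.26 and 0.55 in these 3 comparisons.

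Of 19 lipogenic and insulin targets, 6 were higher and 0 lower in MASH vehicle against chow (median 0.14 against 0.19). The split was 3 and 3 with median-of-ratios scaling. Scd1, which desaturates fatty acids, averaged 4822.4 ± 1294.5 in chow and 13484.7 ± 2036.5 TPM in MASH vehicle (1.51 on the log2 scale, limma adjusted p = 0.00226) and fell to 4545.4 ± 2161.4 with FGF21 (-1.69, 0.00568). With FGF21, 2 were higher than in MASH vehicle and 4 lower (median -0.14 against -0.03). The higher ones were Mlxipl, the carbohydrate-responsive factor ChREBP (0.83, limma adjusted p = 0.0141), and Irs2, an adaptor of the insulin receptor (0.79, 0.0118). Between FGF21 and chow 7 were higher in FGF21 and 4 lower (median 0.01 against 0.20), and 3 and 4 with median-of-ratios scaling. Angptl8 was called in none of these comparisons.

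Gdf15, the stress-induced hormone, was higher on the MASH diet, and the FGF21 group lay lower without passing the test. It lies at chr8:70629393-70632456 on the minus strand. Its levels were 22.4, 7.1, 3.8 and 3.6 TPM in chow, 15.4, 29.8, 16.0 and 32.6 in MASH vehicle, and 11.4, 12.9, 14.3 and 7.4 in FGF21. Chow replicate 1 stood inside the MASH vehicle range, far above the next chow library at 7.1, and every FGF21 library was below every MASH vehicle library. The mean was 9.22 ± 8.93 TPM in chow and 23.5 ± 9.02 in MASH vehicle, 2.54-fold higher, with a log2 fold change of 1.53 ± 0.435 and a limma adjusted p of 0.0155. The call was lost without MASH vehicle replicate 4 (0.0511) and with the GC trend removed (0.0627), and without chow replicate 1 the log2 fold change was 2.04 (0.000551). The FGF21 mean was 11.5 ± 2.98, a log2 fold change of -0.93 ± 0.435 against MASH vehicle with a limma adjusted p of 0.199, and over the alternatives this p spanned 0.0574 to 0.425. Against chow the value was 0.60 (limma adjusted p = 0.259). It passed without chow replicate 1 (1.11, 0.0134) and with array weights (1.11, 0.0434). The genes most like Gdf15 were Eipr1 (r = 0.925), Wdr83 (0.92) and Depp1 (0.915), a target of FOXO factors. Depp1 was also high in chow replicate 1, at 335.4 TPM against 106.9 to 145.4 in the other chow libraries. Macrophages can also make GDF15, and their summed markers, given with Lpl above, moved with the diet in the same direction. Their part in the Gdf15 values was not tested.

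Inhbe, which encodes the subunit of activin E, rose on the MASH diet and fell with FGF21. It lies at chr10:127348857-127354411 on the minus strand. Its levels were 8.0, 17.5, 14.3 and 21.2 TPM in chow, 28.3, 39.6, 27.2 and 37.7 in MASH vehicle, and 11.7, 16.7, 20.7 and 19.1 in FGF21. All MASH vehicle libraries lay above all libraries of the other groups, and chow and FGF21 overlapped. The mean rose from 15.2 ± 5.60 to 33.2 ± 6.36 TPM, 2.18-fold, with a log2 fold change of 1.13 ± 0.251 and a limma adjusted p of 0.00406. It was called under all 25 alternatives, with adjusted p from 0.000373 to 0.0207. With FGF21 the mean fell to 17.0 ± 3.93, 1.95-fold lower, with a log2 fold change of -0.93 ± 0.251 and a limma adjusted p of 0.0335. This call was lost without FGF21 replicate 2 (0.0761), without MASH vehicle replicate 1 (0.0568), 2 (0.085) or 4 (0.088), and without FGF21 replicates 1 and 3 (0.0531), and the log2 fold change stayed between -1.03 and -0.77 over the libraries left out singly. Against chow the FGF21 value was 0.20 (limma adjusted p = 0.525). Among the genes most like Inhbe were Susd1 (r = 0.939) and Tmem120a (0.925). With group means removed r was 0.855 and 0.812. Tmem120a averaged 96.3 TPM in chow, 151.9 in MASH vehicle and 94.6 in FGF21.

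The other liver-rich beta subunit gene, Inhbc, which encodes the subunit of activin C, was highest in treated livers. Its levels were 36.1 to 45.5 TPM in chow, 55.0 to 62.2 in MASH vehicle and 63.6 to 91.5 in FGF21, so the groups were in the same order with no overlap. Inhbc was called higher in MASH vehicle than in chow (log2 fold change 0.53, limma adjusted p = 0.00464), and this was lost with median-of-ratios scaling (0.0794), quantile normalization (0.0542) or the GC trend removed (0.322). The difference between FGF21 and MASH vehicle was 0.30 (0.131). The ratio of Inhbe to Inhbc was 0.455, 0.642, 0.473 and 0.685 in MASH vehicle and 0.164, 0.183, 0.325 and 0.279 in FGF21, with no overlap. In chow it was 0.176 to 0.512, which overlapped both. Of the 6 tested genes of the activin list other than Inhbe, 2 were higher and 0 lower on the diet (median 0.42 against 0.19), 0 and 1 with FGF21 against MASH vehicle (0.13 against -0.03), and 4 and 0 for FGF21 against chow (0.60 against 0.20). Fstl1, a secreted follistatin-like protein, was called in both of the first comparisons, with a log2 fold change of 0.74 (limma adjusted p = 0.00067) and then -0.46 (0.0355). Both Fstl1 calls were lost with the GC trend removed (0.0543 and 0.0575).

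**Figure D4:**
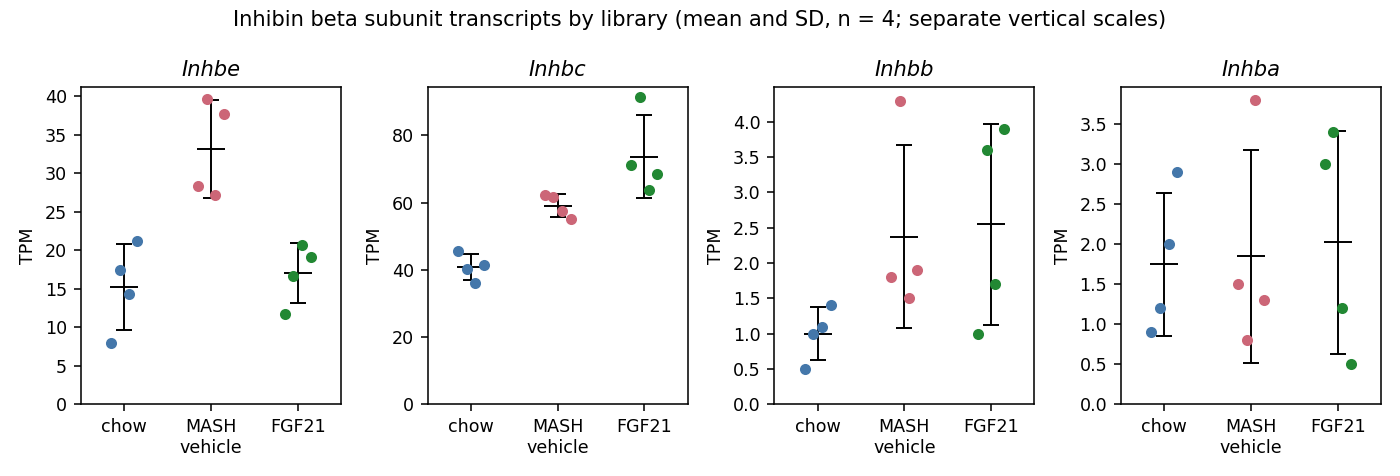
TPM of the 4 inhibin beta subunit genes Inhbe, Inhbc, Inhbb and Inhba by library, with points for libraries, bars for the mean and SD (n = 4) and a separate vertical scale for each gene. Inhbe is highest in MASH vehicle (27.2 to 39.6), Inhbc is highest in FGF21 (63.6 to 91.5), and Inhbb and Inhba stay below 5 TPM.

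Genes of the integrated stress response, the ATF4-driven programme that is known to induce Gdf15 and Fgf21, were set beside these hormones. Of 20 tested genes of the list, 11 were higher and 1 lower in MASH vehicle against chow (median 0.54 against 0.19), and 6 and 2 with median-of-ratios scaling. Atf3, a transcription factor of the programme, rose on the diet, 0.45 ± 0.0577 against 3.68 ± 1.28 TPM (1.65 on the log2 scale, limma adjusted p = 1.61e-05) and fell to 0.875 ± 0.171 with FGF21 (-1.28, 0.00106). Its libraries stood at 0.4 to 0.5 TPM in chow and 0.7 to 1.1 in FGF21. Atf3 thus passed the filter on low values through MASH vehicle, where it was high, and its calls are a description only. The endogenous Fgf21 transcript rose from 4.22 ± 2.01 to 21.6 ± 11.4 TPM on the diet (2.07, limma adjusted p = 0.000515). It was 10.3 ± 3.55 in the treated group (-0.96 against MASH vehicle, 0.088). Psat1, of serine synthesis, rose on the diet at low levels, from 0.10 to 1.23 ± 0.519 TPM (0.99, limma adjusted p = 0.000319). With chow at 0.10 TPM, Psat1 passed the filter only through libraries on the MASH diet, so its call is likewise a description only. Atf3 and Psat1 are both among the 11 genes counted as higher. Cth, of cysteine synthesis, fell from 300.2 ± 22.2 to 81.0 ± 12.8 (-1.89, 2.76e-06) although it belongs to the same list. With FGF21, 3 were higher than in MASH vehicle and 2 lower (median -0.14 against -0.03), and 0 and 2 with the GC trend removed. The lower ones were Atf3 and Mthfd2, a mitochondrial folate enzyme. Mthfd2 had a limma adjusted p of 0.0418, which was 0.0536 without chow replicate 1 and 0.0532 with quantile normalization. The higher ones were Sesn2, a stress-induced regulator of mTORC1 (0.65, limma adjusted p = 0.0382), Ppp1r15a, which directs dephosphorylation of eIF2-alpha (0.44, 0.0267), and Shmt2, a mitochondrial serine enzyme (0.39, 0.042), and all were lost with the GC trend removed (0.15, 0.058 and 0.201). Between FGF21 and chow 8 were higher in FGF21 and 2 lower (median 0.37 against 0.20), 5 and 2 with median-of-ratios scaling, and 3 and 4 with the GC trend removed (median 0.09).

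Lect2 was not called in any comparison, and a single MASH vehicle library set much of its spread. It lies at chr13:56542464-56548502 on the minus strand. Its levels were 107.4, 106.0, 104.1 and 130.0 TPM in chow, 125.4, 109.5, 63.5 and 157.5 in MASH vehicle, and 84.4, 75.6, 97.8 and 94.1 in FGF21. All FGF21 libraries lay below all chow libraries, and MASH vehicle spanned both groups. The log2 fold changes were -0.04 ± 0.212 for the diet (limma adjusted p = 0.894), -0.30 for FGF21 against MASH vehicle (0.396) and -0.34 for treated against chow livers (0.184). The last value passed after quantile normalization (-0.53, adjusted p = 0.0457), median-of-ratios scaling (-0.56, 0.0394), only the groups compared in the fit (0.0477) and without MASH vehicle replicate 3 (0.0477). Without that library FGF21 against MASH vehicle also passed, at -0.56 with a limma adjusted p of 0.0428. Closest in pattern to Lect2 were Oat (r = 0.861), which degrades ornithine, Cyp2a5 (0.843), a cytochrome P450, and Nhlrc2 (0.831). Oat averaged 574.2 ± 111.7 TPM in chow, 410.8 ± 174.7 in MASH vehicle and 317.4 ± 59.0 in FGF21. Cyp2a5 averaged 325.4 ± 85.1, 312.2 ± 158.1 and 160.6 ± 58.8 TPM in the same order.

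The fetuin genes Ahsg and Fetub are neighbours on chromosome 16, at 22891277 to 22899449 and 22918334 to 22939778, both on the plus strand and 18.9 kb apart. Ahsg stood at 8968.5, 8259.6, 11106.5 and 13587.2 TPM in chow, 9243.4, 8907.1, 9836.3 and 10276.9 in MASH vehicle, and 11898.6, 12486.5, 12353.3 and 12182.5 in FGF21. The FGF21 libraries were close together and all above the MASH vehicle libraries, while chow spanned both. The log2 fold change for FGF21 against MASH vehicle was 0.36 with a limma adjusted p of 0.11, and unadjusted 0.019. It passed with quantile normalization (0.45, adjusted p = 0.0417) and array weights (0.39, 0.0358). For the diet it was -0.11 ± 0.134 (limma adjusted p = 0.544), which with the GC trend removed was -0.44 (0.0337). For FGF21 against chow it was 0.25 (0.13), which passed with quantile normalization (0.55, 0.00447) and without chow replicate 4 (0.38, 0.0147). Its exons share 62 bases with Gm30505, an antisense gene. The genes most like Ahsg were Fgfr3 (r = 0.903), a receptor of fibroblast growth factors, Pigs (0.889) and F2 (0.889), prothrombin.

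Fetub stood at 286.1, 271.6, 339.1 and 411.7 TPM in chow, 270.2, 256.5, 316.9 and 344.5 in MASH vehicle, and 285.6, 414.0, 375.8 and 586.0 in FGF21. Only FGF21 replicate 1 of the treated group lay within the MASH vehicle range. The log2 fold change for FGF21 against MASH vehicle was 0.44 with a limma adjusted p of 0.167. It passed without FGF21 replicate 1 (0.61, adjusted p = 0.0299), without FGF21 replicates 1 and 3 (0.74, 0.0154) and with array weights (0.51, 0.027). For the diet it was -0.13 ± 0.195 (limma adjusted p = 0.615), and for FGF21 against chow 0.31 (0.187). The latter passed without FGF21 replicate 1 (0.48, adjusted p = 0.0331) and without replicates 1 and 3 (0.61, 0.0166). These 2 libraries hold the raised Cela1 and Adipoq values given above, and the part of other tissue in the Fetub value was not tested. The ratio of Ahsg to Fetub was 30.4 to 33.0 in chow and 29.8 to 34.7 in MASH vehicle, and in FGF21 it was 41.7, 30.2, 32.9 and 20.8. Over the 12 libraries r between the fetuins was 0.749, and 0.605 with group means removed. Closest in pattern to Fetub were Cyp2d9 (r = 0.973), a cytochrome P450 of male liver in mice, Inhca (0.952) and Ngef (0.943), and with group means removed r was 0.972, 0.96 and 0.923.

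Of the 5 tested genes listed for the cystatin superfamily other than the fetuins, 2 were higher and 0 lower on the diet (median -0.02 against 0.19). With median-of-ratios scaling the split was 0 and 2. The higher ones were Cstb and Cst3, both protease inhibitors, with log2 fold changes of 0.44 and 0.33 (limma adjusted p = 0.0129 and 0.0378), and neither passed with median-of-ratios scaling (0.173 and 0.562). With FGF21, 0 were higher than in MASH vehicle and 1 lower (median 0.13 against -0.03), which was Cstb (-0.51, limma adjusted p = 0.0188). For FGF21 against chow the count was 0 in both directions (median -0.07 against 0.20).

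Genes for receptors and signal carriers of the member hormones were counted next, and a difference from other genes was not tested. Of 14 tested, 2 were higher and 2 lower in MASH vehicle against chow (median -0.01 against 0.19), 0 and 0 in FGF21 against MASH vehicle (0.09 against -0.03), and 3 and 3 in FGF21 against chow (0.12 against 0.20), beside 37.3%, 10.3% and 52.0% of all genes called. Median-of-ratios scaling gave 0 higher and 3 lower for the diet. Met, the hepatocyte growth factor receptor, to which LECT2 can bind, fell on the diet, 10.4 ± 1.01 against 7.0 ± 1.17 TPM (-0.51 on the log2 scale, limma adjusted p = 0.00748). Acvr2a, a type II activin receptor, fell from 4.03 ± 1.05 to 2.38 ± 0.32 (-0.56, 0.0213), which was lost with the GC trend removed (0.0747). Tie1 and Tek, receptors of endothelial cells, were called higher on the diet (limma adjusted p = 0.0351 and 0.0166) and were lost with median-of-ratios scaling (0.156 and 0.115). Both are also endothelial markers, and the 10 such markers summed to 166.8 to 187.7 TPM in chow, 238.2 to 327.8 in MASH vehicle and 280.7 to 346.3 in FGF21.

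Because some hepatokines follow the time of day, 18 clock and ROR genes were counted. On the diet 0 were higher and 1 lower (median -0.02 against 0.19). This was Rora (log2 fold change -0.52, limma adjusted p = 0.0192), a nuclear receptor that acts on Enho in mice, and without chow replicate 1 its adjusted p was 0.0509. Median-of-ratios scaling gave 0 and 4. For FGF21 against MASH vehicle 1 was higher and 0 lower (median 0.04 against -0.03), Nr1d1 (0.51, limma adjusted p = 0.0244), a clock repressor, lost with the GC trend removed (0.104). Between FGF21 and chow 3 were higher in FGF21 and 3 lower (median -0.06 against 0.20), and 1 and 3 with median-of-ratios scaling. The labels give no collection times.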

How the data were processed

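Per the submitters' processing notes, reads were handled with Trim Galore 6.10 and Salmon 1.10.2 on the mouse build mm10. The authors deposited 1 value per gene and library under names that read FPKM and normalized counts. The columns sum to just under 1000000, so the deposited numbers were taken as TPM, rounded to 1 decimal, and the log-scale test planned for FPKM was used on them. TPM keeps no depth, so depth is unknown and no counting intervals are given. All 12 columns were matched by library name, and 0 were left out.

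Genes with at least 1 TPM in at least 4 libraries were tested with limma 3.58.1 (R 4.3.3, trend and robust options) on log2(TPM + 1), with 3 groups in 1 fit and a threshold of 0.05. The procedure was tested on simulated data with independent noise around the mean of each gene and changes added to some genes in MASH vehicle. The simulation held no shift of whole libraries and no outlying library, so it cannot show how these affect the calls. Coordinates came from GENCODE M21 (GRCm38). The planned protein comparison was not run. Members and lists were chosen with earlier results of these data known. Named genes are the 9 members, the 3 genes most like each, and up to 4 called genes per list with the smallest p, other than where the text says otherwise, and Adipoq, Shmt2, Depp1 in chow and Inhbb and Inhba were shown after their values were seen. Some results that this rule names are not reported here. Alternatives were other pseudocounts, filters, scalings and fits, a GC correction, a replicate block and each library left out.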

Additional observations from a re-analysis of the deposited data

Results flagged for a closer look

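Of 27 sets of 4 libraries (9 members in 3 groups), 2 held a library far from the other 3, by a gap that was over the 95% critical value of Dixon's test as a share of the whole range. Chance gives about 1 in 20. Angptl8 in chow replicate 1 stood at 125.2 TPM, with a gap of 0.915 of the range. Lect2 in chow replicate 4 stood at 130.0 TPM, with a gap of 0.873 of the range.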

How the results depend on the processing

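Of the single-member values under 25 alternatives in each comparison, 640 stayed on the same side of the threshold, 19 newly passed it and 16 lost it, and 0 called values changed sign. The cause of these changes was not tested. For MASH vehicle against chow, the number of genes called was 4103, and 2730 with the GC trend removed. Members called were 3, and 2 to 3 with single libraries left out. For FGF21 against MASH vehicle, members called were 2, with 1 at a pseudocount of 5 and 4 with array weights, and 1 to 3 with single libraries left out: 1 without FGF21 replicate 2 or MASH vehicle replicates 1, 2 or 4, and 3 without FGF21 replicate 1 or MASH vehicle replicate 3. All genes called were 1132, with 631 when only the 2 groups were fitted, 2469 with array weights, 2989 without FGF21 replicates 1 and 3, and 569 to 2214 with single libraries left out. For FGF21 against chow, members called were 2, with 1 when Mup and mitochondrially encoded genes left the total, 1 with the GC trend removed, and 0 to 3 with single libraries left out (0 without FGF21 replicate 2). All genes called were 5713, and 3358 with the GC trend removed. Replicate numbers here are those of the sample titles. Some library names carry other numbers, and pairing by those was not tested. Deviations of libraries with the same replicate number correlated at -0.176 to 0.405, over 0.1 in 7 of 12 pairs, against 9 of 36 pairs with different numbers. Every pair would have to be over 0.1 for the numbers to be taken as pairing the samples, so they were not. With the replicate block the members called were 3 in each comparison, with 4688, 1593 and 6111 genes called. Fetub then passed for FGF21 against MASH vehicle (adjusted p = 0.036) and against chow (0.0496). The depth behind the low values of Enho, recorded to 1 decimal, is unknown.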

Other observations

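Other hepatokines, beyond the 9 members, changed in both directions. Of 37 tested, 12 were higher and 11 lower in MASH vehicle against chow (median log2 fold change 0.06 against 0.19 over all genes), and 9 and 15 with median-of-ratios scaling. Of all tested genes 29.5% were called higher and 7.84% lower in that comparison. By the naming rule and, for Lcn2 with FGF21, after its values were seen, 3 genes are given. Saa1, serum amyloid A, stood at 68.3 ± 18.1 TPM in chow, 438.4 ± 99.6 in MASH vehicle and 80.3 ± 28.5 in FGF21 (SD, n = 4), with log2 fold changes of 2.67 on the diet (limma adjusted p = 9.04e-06) and -2.47 with FGF21 (0.000168). Orm2, an orosomucoid, stood at 12.8 ± 3.38, 48.4 ± 14.8 and 10.1 ± 1.49 TPM, with log2 fold changes of 1.82 (limma adjusted p = 4.87e-05) and -2.12 (0.000168). Lcn2, lipocalin 2, stood at 4.83 ± 1.38, 84.2 ± 24.7 and 13.8 ± 7.06 TPM, with log2 fold changes of 3.86 (limma adjusted p = 3.24e-06) and -2.61 (0.000495). Saa1, Orm2 and Lcn2 kept these calls under the scalings run on the lists, without chow replicate 1 and without FGF21 replicates 1 and 3.

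For FGF21 against MASH vehicle, 4 of the 37 were higher and 7 lower (median 0.19 against -0.03), and 10 and 7 without FGF21 replicates 1 and 3. Those higher included Agt, angiotensinogen, and Hgfac, the activator of hepatocyte growth factor, both named after their values were seen. Hgfac stood at 412.1 ± 68.4, 211.6 ± 31.0 and 386.6 ± 55.7 TPM, with log2 fold changes of -0.95 on the diet (limma adjusted p = 0.000299) and 0.87 with FGF21 (0.00378). Agt stood at 1008.4 ± 85.5, 756.2 ± 54.8 and 1180.0 ± 96.6 TPM, with -0.41 (limma adjusted p = 0.00607) and 0.64 (0.00238). For FGF21 against chow, 8 were higher and 3 lower (median 0.03 against 0.20), and 6 and 7 with median-of-ratios scaling. Igf1, insulin-like growth factor 1, was among the lower, at 235.3 ± 18.0 TPM against 415.1 ± 51.0 in chow (-0.81, limma adjusted p = 0.000169). Igf1 was also called lower in MASH vehicle against chow, and it was not called in FGF21 against MASH vehicle.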
